A study of Mus musculus with 12 samples.

Results

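The genotype by treatment interaction asked, gene by gene, whether the difference between hearts labelled exercise and hearts labelled sedentary was the same with and without the gene Cited4. It was computed as a difference of differences, the label difference in knockout hearts minus the label difference in control hearts, in 1 model over the 4 groups. All 12 of the 12 samples of the series entered it, as 4 groups of 3 RNA libraries from whole mouse hearts. A positive interaction means that the exercise label stood higher, relative to the sedentary label, in the knockout than in the control. Genes were singled out where the label difference had opposite signs in the genotypes or was present in 1 genotype.

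The control mice, called Flox, carried loxP-flanked Cited4 alleles on both chromosomes. The knockout mice, called KO, carried the same alleles and cre under the aMHC promoter, which is active in cardiomyocytes, so the other cell types of the heart keep the gene. Mice of either genotype were sedentary or ran voluntarily on wheels, for 8 weeks. Neither strain nor age nor sex is given in the sources used here. No group carried cre with intact Cited4 alleles, so loss of the gene and presence of the transgene cannot be told apart. The labels do not tie a sample to an animal, and p-values therefore measure the spread between these samples, which may be technical. The bracketed codes in the sample titles carry a letter that reads against the treatment word, E beside sedentary and S beside exercise. Groups follow the words, and the names Flox sedentary, Flox exercise, KO sedentary and KO exercise stand for labels throughout. If the letters were right in place of the words, every label difference and the interaction would change sign.

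The series title names the question, whether heart growth and formation of cardiomyocytes under exercise need CITED4. CITED4 is a transcriptional co-regulator without a DNA-binding domain of its own that binds the acetyltransferases CBP and p300. In the exercised mouse heart it is known as a factor induced when the transcription factor C/EBPβ falls, and as a promoter of physiological growth. A factorial design with both genotypes separates what running does in any heart from what it does only when the gene is present, and the interaction is the term that carries that distinction.

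Libraries held 17465432 to 20467300 estimated counts, and 13 mitochondrially encoded genes took between 20.95% and 27.2% of them. Cardiomyocyte markers, in a list of 25 genes called ventricular here, were abundant in each library. Their mean log2(CPM + 1) lay between 10.87 and 11.43, where CPM is a gene's count scaled to a common library size. Atrial cardiomyocytes express most of these genes as well, so the list does not separate the chambers. Atrial markers varied within groups. Their mean over 19 genes was 3.76, 3.85 and 6.003 in Flox sedentary, 3.80, 6.43 and 3.96 in Flox exercise, 5.58, 7.23 and 7.71 in KO sedentary and 6.24, 3.77 and 5.84 in KO exercise, in the order of replicates 1, 2 and 3 used for all values here. Bmp10, an atrial growth factor, was listed at 0, 0 and 0.101 CPM in Flox sedentary, 0, 559 and 0.111 in Flox exercise, 131, 789 and 929 in KO sedentary and 361, 0 and 0.0533 in KO exercise. Flox exercise 2, the 3 KO sedentary libraries and KO exercise 1 thus stood apart in Bmp10. For some of the results below, not all, the value fitted with the atrial mean as a covariate is also given. In RNA from whole hearts, fewer cells of a type and less RNA per cell cannot be told apart.

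Cited4 itself, at chr4:120666563-120667820 in the RefSeq annotation of GRCm38.p6, matched the genotype labels in all 12 libraries. Its estimated counts were 276, 192 and 295 in Flox sedentary and 406, 261 and 431 in Flox exercise, against 5, 2 and 0 in KO sedentary and 3, 0 and 0 in KO exercise. A count of 0 allows up to 3 counts in that library. In Flox hearts the label difference was 0.56 ± 0.33 (log2, SE), and the libraries of the labels overlapped (adjusted p = 0.734, edgeR). With counts this low in KO, no label difference and no interaction were drawn for Cited4.

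No gene passed the interaction at an adjusted p under 0.05 in edgeR's quasi-likelihood test, which is 0% of 15226 genes tested. The smallest adjusted p was 0.279. At an unadjusted p under 0.05, 665 genes (4.37%) had a higher and 840 (5.52%) a lower label difference in KO than in Flox, 9.88% in either direction. The interaction was above 0 for 47.9% of genes. These shares are the background for all list counts of the interaction below. DESeq2, run on the same counts, called 47 genes, 13 higher and 34 lower, and each DESeq2 call named below is a call of that tool alone. Some genes named below were DESeq2 calls without being marked so. The label difference itself was called in edgeR for 0 genes (0%) in Flox, where the smallest adjusted p was 0.0715, 1129 genes (7.41%) had an unadjusted p under 0.05 and DESeq2 called 44. In KO it was called for 3 genes (0.0197%), all lower under the exercise label, with 1617 (10.6%) at an unadjusted p under 0.05.

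The label differences in the genotypes rest on different libraries. In Flox 51.4% of all genes had a difference above 0 and in KO 49.3%, and the signs were opposite for 8003 genes (52.6%). The 3 libraries of one label lay apart from those of the other in Flox for 7.5% of genes (exercise higher) and 6.57% (exercise lower), and in KO for 5.83% and 7.31%. Opposite directions with no overlap between the labels in either genotype were found for 136 genes (0.893%). Of these, 45 (0.296%) were higher under the exercise label in KO and lower in Flox, and 91 (0.598%) were lower in KO and higher in Flox. The same count, 136, lay apart without overlap in a shared direction, 54 higher (0.355%) and 82 lower (0.539%), so opposite directions were no more frequent than shared ones. Since fewer libraries overlap less often, leaving 1 out raised the 45 to between 54 and 204 (without Flox sedentary 1) and the 91 to between 104 and 264 (without KO exercise 3). With an unadjusted p under 0.05 in both genotypes, 68 genes (0.447%) had opposite and 60 (0.394%) had shared signs. An unadjusted p under 0.05 in 1 genotype, not in the other, and also for the interaction, was found for 644 genes in KO (4.23%) and 394 in Flox (2.59%).

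**Figure D1:**
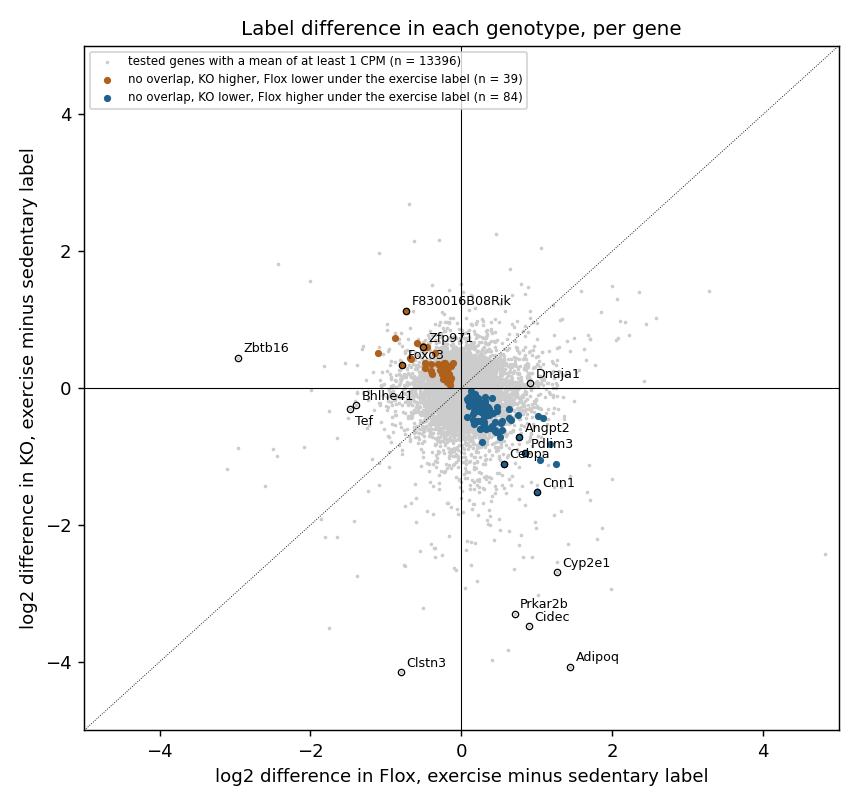
Each point is a gene with a mean of at least 1 CPM (13396 genes, 8 of them beyond the axes), with its log2 label difference in Flox on the x axis and in KO on the y axis; on the dotted diagonal the interaction is 0. Coloured points are genes whose labels do not overlap in either genotype and go opposite ways, 39 brown and 84 blue; fat cell genes such as Adipoq and Cidec lie far below the diagonal, and Zbtb16, Tef and Bhlhe41 lie to the left.

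The 3 genes that passed in KO were Prkar2b, Cidec and Clstn3. Prkar2b, at chr12:31958450-32061648, encodes a regulatory subunit of protein kinase A that is abundant in fat and brain. It stood at 2.24, 0.787 and 1.06 CPM in Flox sedentary, 1.37, 2.99 and 2.21 in Flox exercise, 11.3, 8.23 and 21.7 in KO sedentary and 1.03, 1.496 and 1.65 in KO exercise. The KO sedentary libraries were above all 9 others, and the labels overlapped in Flox. Prkar2b fell 9.84-fold in KO (-3.30 ± 0.45 log2, SE; adjusted p = 0.0483, edgeR), against 0.71 ± 0.47 in Flox, and the interaction was -4.003 ± 0.65 (adjusted p = 0.279, edgeR).

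Cidec, at chr6:113424634-113435760, encodes a protein that fuses lipid droplets into large ones. Its values were 0.59, 0.21 and 0.0504 CPM in Flox sedentary, 0.342, 0.263 and 0.941 in Flox exercise, 8.24, 9.93 and 16.2 in KO sedentary and 0.875, 1.29 and 0.906 in KO exercise. Again the KO sedentary libraries stood above the rest, and 5 of the 6 Flox values came to at most 0.59 CPM, so the Flox difference of 0.90 ± 0.69 rests on few counts. Cidec fell 11.1-fold in KO (adjusted p = 0.0483, edgeR), and its interaction was -4.38 ± 0.83 (adjusted p = 0.279, edgeR). Clstn3, at chr6:124430756-124464784, encodes a calsyntenin. Its values were 0.531, 0.472 and 0.353 CPM in Flox sedentary, 0.285, 0.263 and 0.221 in Flox exercise, 2.46, 2.10 and 5.93 in KO sedentary and 0.257, 0.103 and 0.213 in KO exercise. Here the exercise label was lower without overlap in both genotypes. Clstn3 fell 17.7-fold in KO (adjusted p = 0.0195, edgeR), with -0.80 ± 0.54 in Flox and an interaction of -3.35 ± 0.75 (adjusted p = 0.379, edgeR), and the sign was the same in both genotypes. The 3 calls depend on single libraries and settings: the count of KO calls was 1 with RLE scaling, 0 with the atrial mean as a covariate, 0 without Flox sedentary 2, KO sedentary 3 or any 1 of the KO exercise libraries, and 566 without KO sedentary 1.

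Other genes of fat cells showed the same arrangement without passing the edgeR test. Adipoq, at chr16:23146536-23157968, the gene of the fat-secreted hormone adiponectin, stood at 0.413, 0.157 and 0.202 CPM in Flox sedentary, 0.342, 0.21 and 1.55 in Flox exercise, 6.12, 10.3 and 16.4 in KO sedentary and 0.669, 0.516 and 0.746 in KO exercise. Its interaction was -5.52 ± 0.94, the most negative among the 5 genes with the smallest p in that direction (adjusted p = 0.279, edgeR). Cyp2e1, a cytochrome P450, was at 0.354, 0.892 and 0.303 CPM in Flox sedentary and 0.342, 1.26 and 2.16 in Flox exercise, against 14.99, 11.5 and 18.9 in KO sedentary and 2.37, 2.68 and 1.97 in KO exercise. Car3, a carbonic anhydrase of fat and muscle, was at 58.5, 56.0 and 109 CPM in KO sedentary and at or below 7.53 CPM in every other library. In each of these genes the KO sedentary libraries lay above the other 9. For the interaction, DESeq2 called Prkar2b and Adipoq (adjusted p = 3.51e-06 for each, DESeq2), Cyp2e1 (1.79e-05) and Cidec (3.96e-05). It did not call Clstn3 or Car3. The interactions were -3.96 ± 0.70 for Cyp2e1 and -4.45 ± 1.13 for Car3, which was -2.60 without Flox exercise 3, and without Flox exercise 1 Cyp2e1 passed (adjusted p = 0.0266, edgeR; 1.79e-05 to 0.833 over 18 alternatives).

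Of 19 adipocyte markers tested, 9 (47.4%) had a lower label difference in KO than in Flox at an unadjusted p under 0.05, and 1 had a higher one. The median label difference was 0.04 in Flox and -0.70 in KO, with a median interaction of -0.74, beside -0.02 over all genes tested. In Flox 1 marker was higher at an unadjusted p and 0 lower (3.86% and 3.56% of all genes), and in KO 1 was higher and 11 lower (4.35% and 6.27%). By library, the marker mean on the log2(CPM + 1) scale was 4.29, 4.03 and 3.89 in Flox sedentary, 3.997, 3.94 and 4.38 in Flox exercise, 5.30, 5.25 and 5.67 in KO sedentary and 4.33, 4.30 and 4.10 in KO exercise. The 3 KO sedentary libraries were the highest of the 12. They also had 3 of the 7 atrial means above 5, and with the atrial mean as a covariate the interaction was -3.74 for Prkar2b, -4.64 for Cidec and -5.40 for Adipoq, with a list median of -0.86. Whether the amount of fat tissue left on the hearts differed between libraries was not tested.

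Genes of fatty acid and triglyceride synthesis were mixed. Scd1, which encodes stearoyl-CoA desaturase, stood at 25.2, 18.1 and 15.8 CPM in Flox sedentary, 16.4, 17.5 and 21.04 in Flox exercise, 151, 64.1 and 173 in KO sedentary and 20.96, 14.7 and 27.2 in KO exercise. Its KO sedentary libraries did not overlap with any others, and the interaction was -2.52 ± 0.50, which passed without KO sedentary 2 (adjusted p = 0.0376, edgeR; 3.96e-05 to 0.833 over 18 alternatives). Scd1 was a DESeq2 call for the interaction. Elovl6, a fatty acid elongase, had 4.68, 3.09 and 10.8 CPM in KO sedentary against 0.772, 0.877 and 2.18 in KO exercise, and an interaction of -2.46 ± 0.74. Acaca, the carboxylase that makes malonyl-CoA, was lower under the exercise label without overlap in both genotypes, with log2 differences of -0.35 in Flox and -1.07 in KO. Gpam, the first acyltransferase of triglyceride synthesis, went the other way, with -0.49 in Flox, 0.56 in KO and an interaction of 1.06 ± 0.33. Of 15 members of the list, 2 (13.3%) had a higher and 6 (40%) a lower interaction at an unadjusted p under 0.05 (4.37% and 5.52% of all genes).

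**Figure D2:**
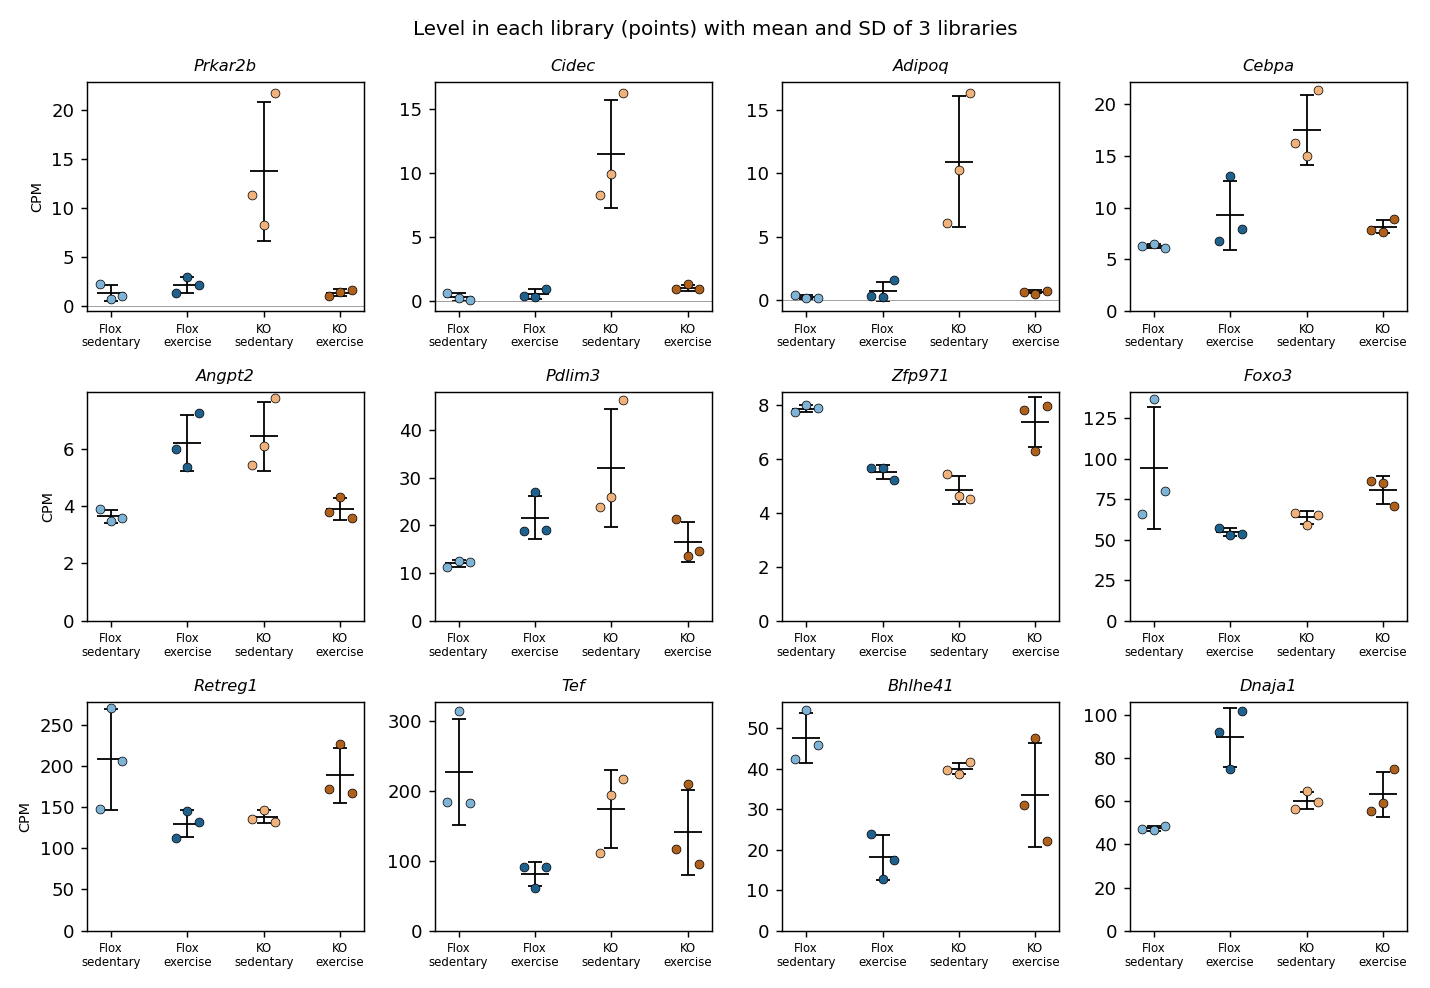
CPM of 12 genes in each library (points), with the mean and SD of 3 libraries in each of the 4 labelled groups on the x axis; each panel has its own axis from 0. Prkar2b, Cidec and Adipoq are high in the 3 KO sedentary libraries alone, Cebpa, Angpt2 and Pdlim3 cross downwards in KO, Zfp971, Foxo3 and Retreg1 cross upwards, and Tef, Bhlhe41 and Dnaja1 have separate labels in Flox and overlapping ones in KO.

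Among the 91 genes that were lower in KO and higher in Flox under the exercise label, 84 had an interaction with an unadjusted p under 0.05 (9.88% of all genes), a measure fixed in part by the way they were picked. In 69 of them every KO sedentary library lay above every Flox sedentary library, in 49 every KO exercise library lay below every Flox exercise library, and 27 did both. Over all genes tested, 1591 had the first arrangement and 1101 the second, and 110 crossed between the labels in either direction. The way the 91 were picked favoured these arrangements too, so their counts are a description and no separate support. The 9 genes named here were among the 10 with the smallest interaction p of the 91.

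Cebpa, at chr7:35119293-35121928, encodes C/EBPα, a transcription factor of fat cell and liver differentiation and a relative of the C/EBPβ that stands upstream of CITED4. Its values were 6.31, 6.45 and 6.05 CPM in Flox sedentary, 6.78, 13.0 and 7.92 in Flox exercise, 16.2, 14.98 and 21.3 in KO sedentary and 7.88, 7.69 and 8.90 in KO exercise. The exercise label was above the sedentary label in Flox by a narrow margin, with Flox exercise 2, the library rich in atrial markers, as the highest, and was well below it in KO. Label differences were 0.56 ± 0.22 in Flox and -1.10 ± 0.21 in KO, and the interaction was -1.66 ± 0.30 (adjusted p = 0.279, edgeR), or -1.38 with the atrial covariate. With no filter on low counts it was the 1 gene that passed (adjusted p = 0.0403, edgeR; 0.00219 to 0.833 over 18 alternatives).

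Angpt2, at chr8:18690263-18741562, encodes angiopoietin-2, a ligand that opposes angiopoietin-1 at the endothelial receptor Tie2 during vessel remodelling. It was measured at 3.89, 3.46 and 3.58 CPM in Flox sedentary, 5.98, 5.36 and 7.25 in Flox exercise, 5.45, 6.08 and 7.75 in KO sedentary and 3.81, 4.33 and 3.57 in KO exercise. KO sedentary and Flox exercise were high, and KO exercise and Flox sedentary were low. The label difference was 0.77 ± 0.18 in Flox and -0.72 ± 0.18 in KO, with an interaction of -1.48 ± 0.26 (adjusted p = 0.279, edgeR) and -1.53 with the atrial covariate. Tek, the gene of Tie2, was higher under the exercise label without overlap in Flox (0.24), its labels overlapped in KO (-0.16), and the interaction was -0.40 ± 0.15.

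Pdlim3, which encodes an actinin-binding protein of the muscle Z-disc, stood at 11.3, 12.5 and 12.4 CPM in Flox sedentary, 18.9, 26.95 and 19.0 in Flox exercise, 23.9, 26.0 and 46.2 in KO sedentary and 21.4, 13.7 and 14.7 in KO exercise, with an interaction of -1.79 ± 0.36. Atp2b4, a plasma membrane calcium pump, stood at 30.0, 33.2 and 29.4 CPM in Flox sedentary, 36.1, 39.7 and 33.7 in Flox exercise, 42.8, 52.3 and 50.9 in KO sedentary and 35.6, 28.3 and 32.3 in KO exercise, with an interaction of -0.84 ± 0.16. In both genes the highest of the 12 values was in a KO sedentary library. G0s2, an inhibitor of the triglyceride lipase ATGL, had 30.6, 29.2 and 26.9 CPM in Flox sedentary and 43.4, 31.7 and 49.2 in Flox exercise, then 27.8, 36.4 and 37.3 in KO sedentary and 19.98, 26.1 and 25.1 in KO exercise. Its lowest values were those of KO exercise, and the interaction was -1.03 ± 0.23. The other 4 were Tspan2, a tetraspanin (-1.11 ± 0.23), Ecm2, a matrix protein (-0.70 ± 0.15), Siah2, a ubiquitin ligase (-1.02 ± 0.22), and Ccdc125 (-2.36 ± 0.51), which was at or below 2.39 CPM throughout. These 9 genes were among the 47 DESeq2 calls for the interaction.

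Of the 45 genes that were higher in KO and lower in Flox under the exercise label, 43 had an interaction with an unadjusted p under 0.05, beside 1505 of all 15226 genes (9.88%), and for them too the choice fixed that measure in part. In 32 of them every KO sedentary library was below every Flox sedentary library. In 32 every KO exercise library was above every Flox exercise library, and 19 did both. Over all genes tested, 1207 had the first arrangement and 1158 the second. The choice of the 45 favoured these arrangements as well, so their counts are a description only. Zfp971, at chr2:178023284-178035859, a zinc finger gene, had the smallest p. It stood at 7.73, 7.98 and 7.87 CPM in Flox sedentary, 5.64, 5.67 and 5.20 in Flox exercise, 5.45, 4.61 and 4.52 in KO sedentary and 7.83, 6.29 and 7.94 in KO exercise. The replicates lay close together, KO sedentary was below Flox sedentary and KO exercise was above Flox exercise. The label difference was -0.51 ± 0.14 in Flox and 0.60 ± 0.14 in KO, and the interaction was 1.11 ± 0.20 (adjusted p = 0.279, edgeR).

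Retreg1, a receptor for autophagy of the endoplasmic reticulum, was measured at 147, 269.5 and 206 CPM in Flox sedentary, 113, 146 and 132 in Flox exercise, 135, 147 and 132 in KO sedentary and 172, 227 and 167 in KO exercise, and its interaction was 1.12 ± 0.27. Tfb2m, a factor that starts transcription of the mitochondrial genome, was at 44.2, 55.6 and 51.1 CPM in Flox sedentary, 43.9, 41.3 and 41.7 in Flox exercise, 48.4, 43.7 and 45.3 in KO sedentary and 53.7, 55.9 and 57.0 in KO exercise. Its differences were small, -0.25 ± 0.10 in Flox and 0.28 ± 0.10 in KO. The other genes had interactions of 0.86 ± 0.17 (Mb21d2), 0.77 ± 0.18 (Slco5a1, of an organic anion transporter family), 1.06 ± 0.25 (Sdr42e1, of the short-chain dehydrogenase family), 0.51 ± 0.13 (Rtf1, a transcription elongation factor), 1.13 ± 0.29 (Sbk1, a kinase), 0.60 ± 0.16 (Bcap29, a protein of the endoplasmic reticulum) and 1.86 ± 0.45 (F830016B08Rik, at or below 4.78 CPM). Zfp971, Mb21d2, Retreg1 and Sbk1 were called by DESeq2 and the other 6 were not. Gm12481, whose annotated exon bases all lie within exons of Fam221b on the other strand, was at 6.65, 7.20 and 11.5 CPM in KO sedentary and 20.8, 16.3 and 16.8 in KO exercise, with overlapping labels in Flox and an interaction of 1.31 ± 0.31. The strand setting of the counting is not given in the sources used here, and without it its reads and those of Fam221b cannot be told apart.

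Foxo3, a transcription factor held out of the nucleus by insulin and IGF1 signalling through Akt, was also in this class. It stood at 65.8, 137 and 79.9 CPM in Flox sedentary, 57.4, 52.6 and 53.7 in Flox exercise, 66.4, 59.3 and 65.5 in KO sedentary and 86.4, 85.1 and 70.5 in KO exercise. The exercise label was lower without overlap in Flox (-0.79 ± 0.21) and higher without overlap in KO (0.34 ± 0.21), and the interaction was 1.13 ± 0.29 (adjusted p = 0.379, edgeR). Insr, the insulin receptor gene, was lower without overlap in Flox (-0.39), overlapped in KO (0.25) and had an interaction of 0.64 ± 0.21. Phlda3, an Akt inhibitor and p53 target, was lower under the exercise label without overlap in both genotypes, with log2 differences of -0.16 in Flox and -0.65 in KO. In the list of 27 genes for insulin, IGF1 and mTORC1 signalling, 5 (18.5%) had a higher and 2 (7.41%) a lower interaction at an unadjusted p, with a median of 0.16. The shares over all genes were 4.37% and 5.52%. Pdk1 was among the 5, though it encodes a kinase of pyruvate dehydrogenase and not of this pathway, so the count is inflated by that gene. In the list named for CITED and C/EBP genes 1 of 14 (7.14%) was higher and 1 (7.14%) lower, near the 4.37% and 5.52% of all genes. That list also holds the genes of CBP and p300 and other transcription factors. Cited4, for which no interaction was drawn, is counted among the 14, so the shares do not describe these families alone. Cebpb, the gene of C/EBPβ, was at 33.3, 45.7 and 22.0 CPM in Flox sedentary, 16.2, 26.0 and 23.3 in Flox exercise, 16.1, 36.3 and 30.9 in KO sedentary and 31.5, 29.6 and 26.1 in KO exercise. The labels overlapped in both genotypes, and its interaction was 0.69 ± 0.45. Cited2, a paralog of Cited4, had an interaction of 0.48 ± 0.20.

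Tef, Bhlhe41 and Dnaja1, members of the clock and heat shock lists, had labels that lay apart in Flox and overlapped in KO, and no interaction passed the test. Clock output genes are driven by CLOCK and BMAL1 through the E-box CACGTG, and heat shock genes by HSF1 through paired GAA repeats. The promoters of these 3 genes are shown, the 250 bases before the first start listed in RefSeq on GRCm38.p6, with the matched motif in capitals. Each of the 3 holds a match, which most members of these lists do not, as counted below. Dnaja1 lies at chr4:40722218-40722467 on the plus strand, Tef at chr15:81802423-81802672 on the plus strand and Bhlhe41 at chr6:145865421-145865670 on the minus strand.
Dnaja1: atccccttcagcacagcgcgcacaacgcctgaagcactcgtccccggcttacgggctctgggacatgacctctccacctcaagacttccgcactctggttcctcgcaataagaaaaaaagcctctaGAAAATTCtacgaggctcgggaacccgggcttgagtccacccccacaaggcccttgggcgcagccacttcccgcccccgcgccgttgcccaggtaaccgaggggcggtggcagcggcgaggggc
Tef: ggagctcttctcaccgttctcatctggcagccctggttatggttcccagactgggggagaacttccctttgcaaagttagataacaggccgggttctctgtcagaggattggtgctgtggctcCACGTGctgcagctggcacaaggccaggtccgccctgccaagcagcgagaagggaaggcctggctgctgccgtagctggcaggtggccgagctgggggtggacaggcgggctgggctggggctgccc
Bhlhe41: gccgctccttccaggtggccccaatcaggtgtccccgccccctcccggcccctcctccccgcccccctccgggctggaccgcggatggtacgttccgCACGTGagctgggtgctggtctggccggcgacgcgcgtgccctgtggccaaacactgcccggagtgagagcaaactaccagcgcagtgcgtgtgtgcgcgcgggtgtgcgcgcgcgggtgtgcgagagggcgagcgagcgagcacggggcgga
The motif GAANNTTC, searched on both strands, was in 6.78% of 27025 such promoters and in 5 of 15 heat shock members with a promoter (33.3%), Dnaja1, Hspa1a, Hspa1b, Hspb1 and Hspe1. CACGTG, the same on both strands, was in 6.05% of all and in 5 of 16 clock members (31.2%), Bhlhe41, Ciart, Cry1, Per1 and Tef. TTGCNNAA, a C/EBP motif searched on both strands, was in 9.55% of all and in 1 of 14 adipocyte members (7.14%), Plin1. A match is a description of these letters, and no match says only that the letters are not in this window.

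Most clock genes were lower under the exercise label in Flox. Of 19 tested, 12 had a lower and 5 a higher label difference in Flox at an unadjusted p under 0.05 (3.56% and 3.86% of all genes), against 1 lower and 1 higher in KO (6.27% and 4.35% of all genes). The label differences had opposite signs in the genotypes for 1 of the 19, against 52.6% of all genes. The list median was -0.91 in Flox and -0.25 in KO. The interaction, the test of that difference, had an unadjusted p under 0.05 for 4 of 19 (21.1%), all higher, and passed for 0. Tef, an output factor that binds D-boxes, was at 184, 314 and 182 CPM in Flox sedentary, 91.7, 61.6 and 90.6 in Flox exercise, 111, 194 and 217 in KO sedentary and 117, 209.9 and 95.7 in KO exercise. Flox exercise lay below the other 9 libraries, and the KO labels overlapped. Its label differences were -1.48 ± 0.35 and -0.31 ± 0.35, and the interaction 1.17 ± 0.49 (adjusted p = 0.491, edgeR).

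Bhlhe41, a repressor of CLOCK and BMAL1, was at 42.5, 54.4 and 45.9 CPM in Flox sedentary, 23.9, 12.9 and 17.6 in Flox exercise, 39.7, 38.8 and 41.6 in KO sedentary and 31.0, 47.6 and 22.3 in KO exercise, with an interaction of 1.14 ± 0.36. Cry2, another repressor, had -0.90 in Flox and -0.04 in KO, and Nr1d2, the gene of the nuclear receptor REV-ERBβ, had -1.09 and -0.21. Within KO exercise, replicate 2 was the highest of the 3 for Tef, Bhlhe41, Cry2 and Nr1d2, and replicate 3 the lowest. The list means were 4.95, 5.25 and 5.02 in Flox sedentary, 4.54, 4.26 and 4.47 in Flox exercise, 4.69, 5.05 and 5.0 in KO sedentary and 4.71, 4.96 and 4.50 in KO exercise. The time of day at which hearts were taken is not given in the sources used here, and its part in these values was not tested.

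The heat shock list also holds cold-inducible genes, and its counts and medians include them. At an unadjusted p under 0.05, 7 of its 19 genes were higher and 1 lower under the exercise label in Flox. The shares over all genes were 3.86% and 3.56%. In KO 3 were higher and 1 lower (4.35% and 6.27% of all genes), and medians were 0.31 in Flox and 0.07 in KO. Dnaja1, a co-chaperone of HSP70, was at 47.0, 46.8 and 48.7 CPM in Flox sedentary, 92.0, 75.0 and 102 in Flox exercise, 56.5, 64.6 and 59.7 in KO sedentary and 55.5, 59.1 and 75.0 in KO exercise. Its labels did not overlap in Flox, where the difference was 0.92 ± 0.13 and the adjusted p of 0.0715 (edgeR), shared with Bhlhe40, was the smallest in that comparison. They overlapped in KO (0.07 ± 0.13), and the interaction was -0.85 ± 0.19 (adjusted p = 0.363, edgeR), a DESeq2 call. Hspa1a, Hspa1b and Dnajb1 had the same form, with 1.09, 0.87 and 0.53 in Flox without overlap, -0.45, -0.38 and -0.30 in KO with overlap, and interactions of -1.54 ± 0.41, -1.25 ± 0.37 and -0.82 ± 0.24. Hspa1a and Hspa1b are near-identical copies, so the split of reads between them is uncertain. Over the 19 genes, 1 (5.26%) had a higher and 4 (21.1%) a lower interaction at an unadjusted p, 7 had one above 0, and the median of -0.15 was 0.01 without Flox exercise 1.

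Glucocorticoid-responsive genes differed in direction among themselves. Zbtb16, a zinc finger factor strongly induced by glucocorticoids, was at 92.5, 144 and 19.6 CPM in Flox sedentary, 9.63, 9.09 and 14.1 in Flox exercise, 16.1, 19.4 and 27 in KO sedentary and 34.1, 32.9 and 18.1 in KO exercise. Flox sedentary 1 and 2 stood far above the other 10 libraries. The label difference was -2.96 ± 0.64 in Flox and 0.45 ± 0.60 in KO, with an interaction of 3.40 ± 0.87 (adjusted p = 0.394, edgeR). Klf15, a regulator of amino acid and lipid use, was lower under the exercise label in Flox (-0.66) and had an interaction of 0.87 ± 0.24. Sgk1, a kinase, and Errfi1, an inhibitor of EGF receptors, were higher without overlap in Flox (0.51 and 1.02), overlapped in KO (-0.20 and -0.71) and had interactions of -0.72 ± 0.16 and -1.72 ± 0.41. Over the 16 genes, 4 (25%) had a higher and 2 (12.5%) a lower interaction at an unadjusted p (4.37% and 5.52% of all genes).

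Genes of amino acid supply and stress mostly had interactions below 0, 12 of 15 in the integrated stress list (7927 of all 15226 genes). There, 5 of 15 (33.3%) had a lower interaction at an unadjusted p and 1 (6.67%) a higher one (5.52% and 4.37% of all genes). Psat1 and Phgdh, enzymes of serine synthesis, were higher without overlap in Flox (0.67 and 0.82), overlapped in KO (-0.32 and -0.25) and had interactions of -0.99 ± 0.29 and -1.08 ± 0.35. Asns, asparagine synthetase, went opposite ways without overlap, 0.47 in Flox and -0.34 in KO. Shmt2, a mitochondrial enzyme of serine use, had the other sign, with an interaction of 0.43 ± 0.15. The immediate early list had a median interaction of -0.81, with 5 of 24 lower (20.8%) and 0 higher. KO sedentary 3 had the highest list mean, 5.07. Egr3, an early growth response factor, was at 2.46, 1.39 and 8.99 CPM in KO sedentary, and without KO sedentary 3 the list median was -0.26. With the atrial covariate the list median was -0.51.

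**Figure D3:**
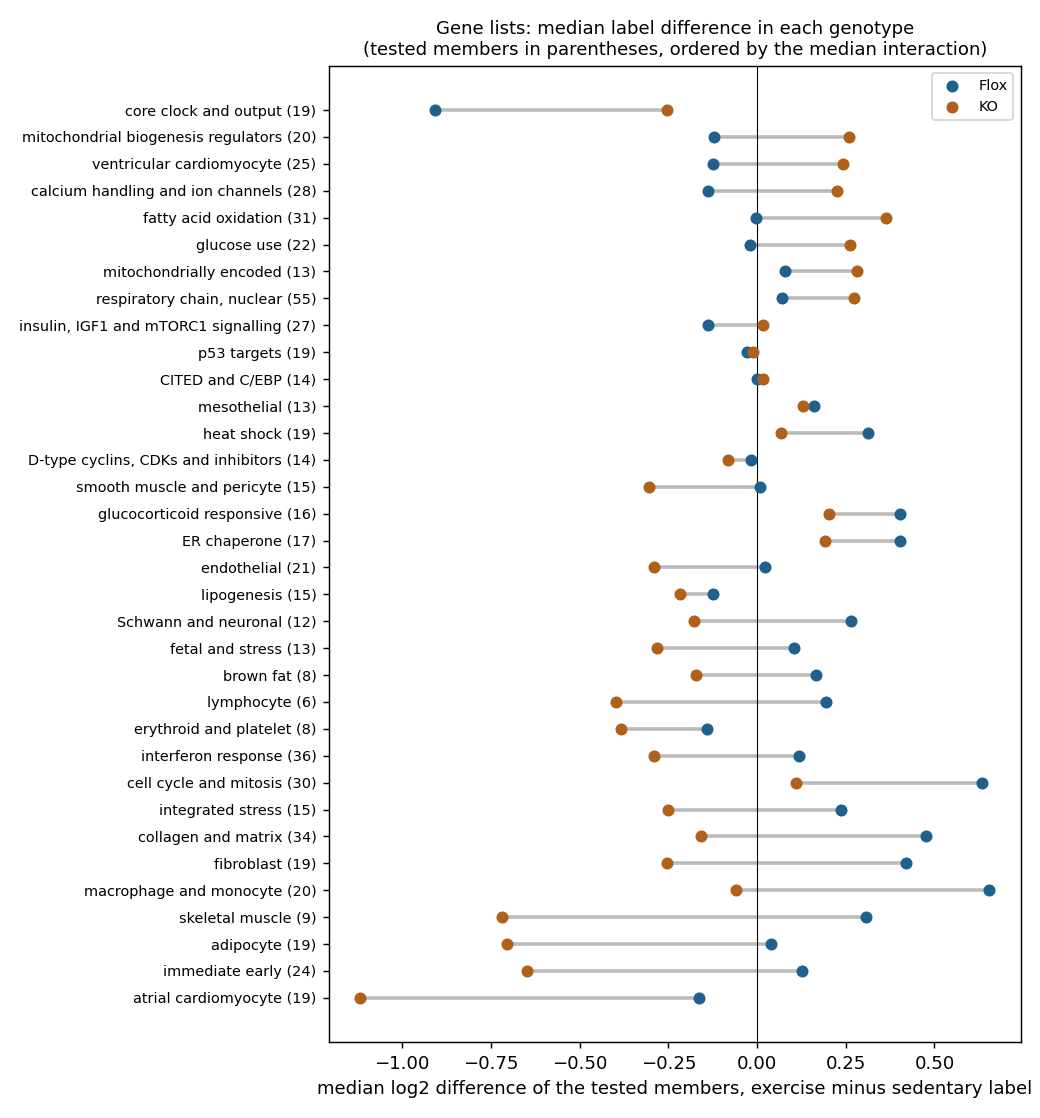
Median log2 label difference (exercise minus sedentary) of the tested members of 34 gene lists, in Flox (blue) and in KO (brown), ordered by the median interaction; the number of tested members stands in parentheses after each name. Clock genes have the lowest median in Flox, and ventricular, fatty acid oxidation and calcium lists sit to the right in KO and near or below 0 in Flox.

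Genes of the ventricular list, most of which atrial cardiomyocytes also express, had positive interaction values, none of which passed the test. All 25 members had an interaction above 0 (47.9% of all genes did), 6 of them (24%) at an unadjusted p under 0.05. Medians were -0.12 in Flox and 0.24 in KO. Ryr2, the calcium release channel of the sarcoplasmic reticulum, was at 962, 1656 and 1629 CPM in Flox sedentary, 1312, 1149.8 and 1011 in Flox exercise, 1361, 864 and 742 in KO sedentary and 1865, 1272 and 1586 in KO exercise. KO sedentary 2 and 3 were the lowest of the 12, and labels overlapped in both genotypes. The interaction of Ryr2 was 0.96 ± 0.36, that of Pln, the inhibitor of the calcium pump SERCA2, 0.62 ± 0.23, that of Myom2, an M-band protein, 0.72 ± 0.25, and that of Cacna1c, the pore of the L-type calcium channel, 0.77 ± 0.27. Exons of Pln overlap an annotated transcript on the other strand, so its counts are uncertain to that extent.

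In the list of calcium handling genes and ion channels, 9 of 28 (32.1%) had a higher and 2 (7.14%) a lower interaction at an unadjusted p, and the median was 0.37. Cacnb2, an auxiliary subunit of the L-type channel, was at 55.7, 67.6 and 58.6 CPM in Flox sedentary, 43.1, 55.6 and 48.6 in Flox exercise, 44.8, 45.6 and 46.7 in KO sedentary and 56.9, 66.0 and 51.2 in KO exercise. Labels went opposite ways without overlap, and the interaction was 0.65 ± 0.17. Cacna2d1, another subunit, had 0.68 ± 0.25. KO sedentary libraries 2 and 3 were also those with the highest atrial means, and with the atrial covariate the list medians were 0.27 for ventricular and 0.35 for calcium genes.

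Nppb, the B-type natriuretic peptide gene and a marker of wall stress, was at 137, 106 and 177 CPM in Flox sedentary, 178, 138 and 278 in Flox exercise, 239, 186 and 610.5 in KO sedentary and 152, 144 and 143 in KO exercise. KO sedentary 3 was the highest library, the labels did not overlap in KO, and the interaction was -1.74 ± 0.59, or -1.03 without that library. Thbs1, thrombospondin-1, was higher without overlap in Flox (1.55) and overlapped in KO (0.26), while Fhl1, a LIM protein of the sarcomere, had an interaction of -0.55 ± 0.16. In this fetal and stress list 4 of 13 (30.8%) were lower and 0 higher at an unadjusted p. Atrial markers had a median interaction of -1.11, with 3 of 19 lower (15.8%): Adm, adrenomedullin (-1.12 ± 0.41), Clu, clusterin (-1.11 ± 0.45), and Bmp10, whose value is set by libraries listed at or near 0. With 1 library left out the atrial list median ran from -2.27 (without Flox sedentary 3) to -0.28 without Flox exercise 2. The fit with the atrial covariate, which is this list's own mean, gave 0.14.

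Most mitochondrial and fuel genes had interactions above 0, 18 of 22 for glucose use, 17 of 20 for biogenesis regulators and 12 of 13 for mitochondrially encoded genes, against 47.9% of all genes. Of 31 fatty acid oxidation genes, 27 had an interaction above 0 and 6 (19.4%) were higher at an unadjusted p, with medians of -0.004 in Flox and 0.36 in KO. In KO 15 of the 31 were higher under the exercise label at an unadjusted p (4.35% of all genes), in Flox 1 was higher and 1 lower (3.86% and 3.56%). Acadm, the medium-chain acyl-CoA dehydrogenase, was at 812, 995 and 886 CPM in Flox sedentary, 869, 758 and 899 in Flox exercise, 803, 596 and 545 in KO sedentary and 948, 1077 and 802 in KO exercise. KO sedentary 2 and 3 were the lowest libraries. Interactions were 0.63 ± 0.23 for Acadm, 0.59 ± 0.23 for Hadhb, a subunit of the trifunctional protein, 0.49 ± 0.18 for Echs1, an enoyl-CoA hydratase, and 0.53 ± 0.20 for Lpl, lipoprotein lipase. With the atrial covariate the list median went from 0.33 to 0.18.

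Of 20 regulators of mitochondrial biogenesis, 7 (35%) had a higher interaction at an unadjusted p and 0 a lower one. Besides Tfb2m, they included Esrrb, an oestrogen-related receptor, with -0.60 in Flox, 0.32 in KO and an interaction of 0.92 ± 0.24, Twnk, the helicase of mitochondrial DNA (0.62 ± 0.19), and Opa1, which fuses inner membranes (0.54 ± 0.22). Among 22 genes of glucose use, 6 (27.3%) were higher and 0 lower. Hk2, hexokinase 2, was at 226, 316 and 298 CPM in Flox sedentary, 222, 231 and 212 in Flox exercise, 267, 184 and 144 in KO sedentary and 279, 328 and 244 in KO exercise, and its interaction was 0.86 ± 0.28. The Hk2 labels overlapped in both genotypes. Pdk1 (0.72 ± 0.22) and Pdk2 (0.51 ± 0.19), kinases that switch off pyruvate dehydrogenase, and Pdha1 (0.54 ± 0.19), a subunit of that enzyme, had the same sign.

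Nuclear genes of the respiratory chain had interactions above 0 in 52 of 55, but only 2 (3.64%) at an unadjusted p, a share below the 4.37% of all genes. Sdha, a subunit of succinate dehydrogenase, was one of them (0.64 ± 0.23), and Ndufs1, of complex I, the other (0.50 ± 0.20). In KO, 16 of 55 were higher under the exercise label at an unadjusted p and 0 lower (4.35% and 6.27% of all genes), and in Flox 0 were. The median interaction of these nuclear genes was 0.19, or 0.07 with the atrial covariate. Of 13 mitochondrially encoded genes, 2 (15.4%) were higher, mt-Nd6 (0.75 ± 0.23) and mt-Atp8 (1.12 ± 0.35), and 1 (7.69%) was lower, mt-Nd4l (-0.70 ± 0.30). mt-Atp8 shares bases with mt-Atp6, and mt-Nd6 lies on the other strand of the mitochondrial genome from its neighbours, so their counts are uncertain. mt-Co1, a core subunit of complex IV, had an interaction of 0.30 ± 0.19.

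Nearly all matrix and fibroblast genes had negative interaction values, none of which passed the test. Of 34 collagen and matrix genes, 33 had an interaction below 0 (7927 of all 15226 genes did). At an unadjusted p 9 (26.5%) were lower (5.52% of all genes), with medians of 0.48 in Flox and -0.16 in KO. In Flox 13 were higher and 1 lower under the exercise label at an unadjusted p (3.86% and 3.56% of all genes), and in KO 0 were higher and 2 lower (4.35% and 6.27%). Col5a2, a chain of collagen V, was at 28.4, 25.3 and 29.8 CPM in Flox sedentary, 39.9, 76.2 and 40.8 in Flox exercise, 49.6, 51.1 and 47.6 in KO sedentary and 45.8, 33.4 and 57.6 in KO exercise. Flox sedentary was below the other 9 libraries and Flox exercise 2 was the highest of all, and the interaction was -1.03 ± 0.34. Bgn, biglycan, differed in KO without overlap (-0.65) and had -0.90 ± 0.27; Loxl1, a cross-linking oxidase (-0.79 ± 0.24), and Cilp, a matrix protein of TGFβ signalling (-1.36 ± 0.50), differed without overlap in Flox. The list median was -0.41 without Flox exercise 2 and -0.44 with the atrial covariate, from -0.63.

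All 19 fibroblast markers had an interaction below 0 (7927 of all 15226 genes did), 8 (42.1%) at an unadjusted p (5.52% of all genes). The list median was -0.69, or -0.50 with the atrial covariate. Vim, vimentin, was at 221, 200.3 and 222 CPM in Flox sedentary, 229, 383 and 321 in Flox exercise, 336, 358 and 485 in KO sedentary and 238, 220.5 and 309 in KO exercise. Labels went opposite ways without overlap, and the interaction was -1.16 ± 0.28, or -0.89 with the atrial covariate. Serpinf1, the gene of pigment epithelium-derived factor, did the same (-0.96 ± 0.22). Tcf21, a transcription factor of cardiac fibroblasts, was lower without overlap in KO (-1.11), overlapped in Flox (0.32) and had -1.43 ± 0.34, and Fstl1, a secreted glycoprotein, had -0.87 ± 0.25. Vim, Serpinf1 and Tcf21 were DESeq2 calls.

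Vessel genes mostly had interactions below 0, 18 of 21 endothelial and 11 of 15 smooth muscle and pericyte markers (7927 of all 15226 genes). Of 21 endothelial markers 6 (28.6%) were lower for the interaction and 0 higher (5.52% and 4.37% of all genes). Eng, endoglin, a co-receptor of TGFβ and BMP9, was at 197, 160.3 and 193 CPM in Flox sedentary, 208, 243 and 216 in Flox exercise, 197, 291 and 372 in KO sedentary and 182, 140.2 and 175 in KO exercise. It went opposite ways without overlap and had an interaction of -1.07 ± 0.27, while Emcn, endomucin, had -0.55 ± 0.16 and Vwf, von Willebrand factor, -0.99 ± 0.38. Of 15 smooth muscle and pericyte markers 3 (20%) were lower, and the list median of -0.25 was 0.01 without KO sedentary 1. Myl9, a regulatory light chain of smooth muscle myosin, was at 38.3, 18.5 and 28.9 CPM in Flox sedentary, 30.4, 51.5 and 46.9 in Flox exercise, 81.7, 94.5 and 158 in KO sedentary and 36.8, 37.2 and 41.5 in KO exercise. Every KO sedentary library was above the other 9, and the interaction was -2.12 ± 0.43, a DESeq2 call. Cnn1, calponin, went opposite ways without overlap (1.00 in Flox, -1.52 in KO), with KO sedentary 1 at 20.4 CPM as its highest library. Abcc9, a subunit of potassium channels in pericytes and cardiomyocytes, had the other sign (1.06 ± 0.52).

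All 20 macrophage and monocyte markers had an interaction below 0 (7927 of all 15226 genes did), 4 (20%) at an unadjusted p (5.52% of all genes). Medians were 0.65 in Flox and -0.06 in KO. Lyz2, lysozyme, was at 126, 96.3 and 102 CPM in Flox sedentary, 119, 239 and 150.4 in Flox exercise, 115, 195 and 220.1 in KO sedentary and 124, 132 and 190.0 in KO exercise. Flox exercise 2 was the highest library, and labels overlapped in both genotypes. Without it the list median was -0.39, and with the atrial covariate -0.31, from -0.72. C1qa, of complement C1q, had an interaction of -0.73 ± 0.33, Cd14, a lipopolysaccharide co-receptor, -0.85 ± 0.35, and Lyve1, a marker of resident macrophages and lymphatics, -0.68 ± 0.28.

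Among 36 interferon response genes 7 (19.4%) were lower and 1 (2.78%) higher (5.52% and 4.37% of all genes). Ddx58 and Ifih1, sensors of double-stranded RNA, were lower under the exercise label without overlap in KO (-0.44 and -0.48) and overlapped in Flox (0.13 and 0.11), with interactions of -0.57 ± 0.17 and -0.59 ± 0.19. Dhx58, a related helicase, was higher without overlap in Flox (0.64) and had an interaction of -1.13 ± 0.33.

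**Figure D4:**
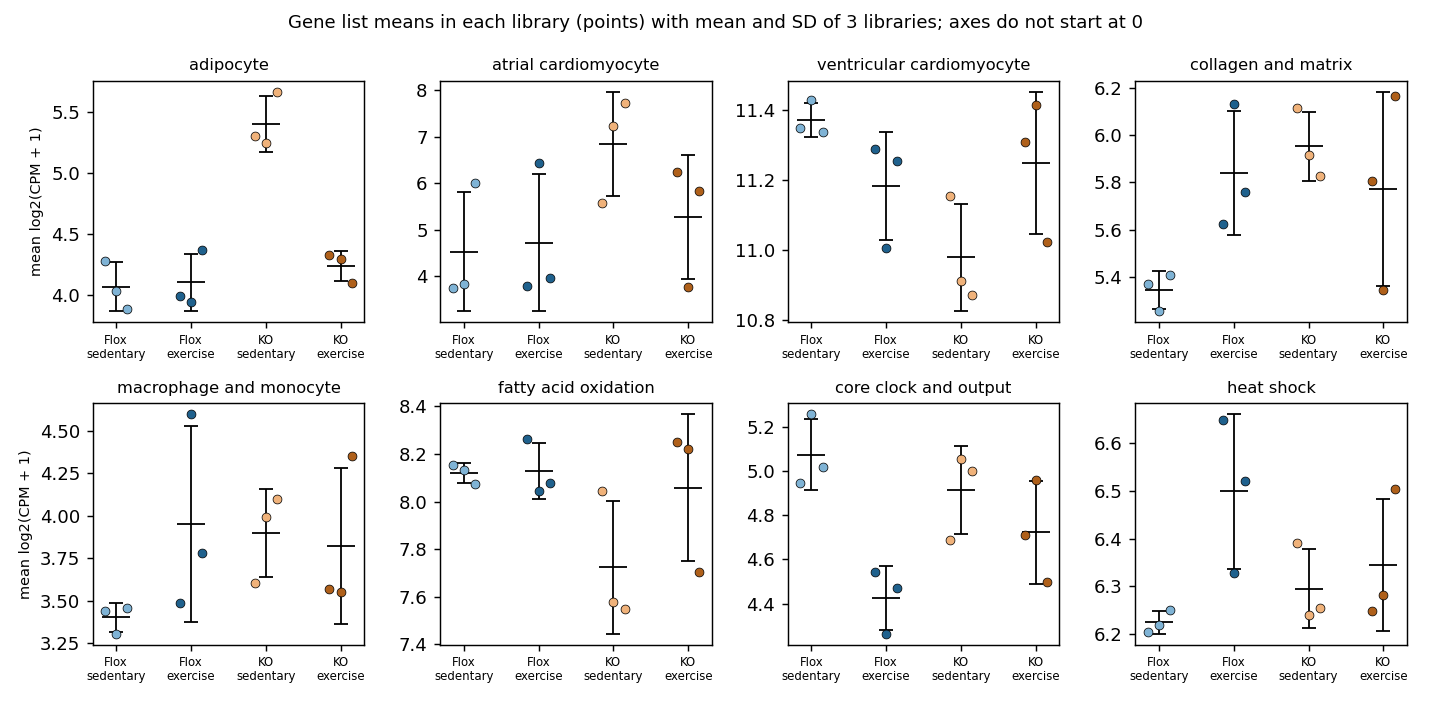
Mean log2(CPM + 1) of 8 gene lists in each library (points), with the mean and SD of 3 libraries in each of the 4 labelled groups on the x axis; axes do not start at 0. Adipocyte means are highest in the 3 KO sedentary libraries, atrial means spread widely within each group, and clock means are lower in Flox exercise than in Flox sedentary without overlap.

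Cell cycle genes bear on the growth question in the title, and few had a low interaction p. Of 30 tested, 2 (6.67%) were lower at an unadjusted p and 0 higher, beside 5.52% and 4.37% of all genes. Medians were 0.64 in Flox, 0.11 in KO and -0.40 for the interaction, and the last was -0.02 without Flox exercise 2, whose list mean of 2.35 was the highest of the 12. With the atrial covariate the median interaction was -0.04. The 2 lower genes were Tyms, thymidylate synthase, at 1.65, 1.36 and 1.61 CPM in Flox sedentary and 1.82, 3.52 and 2.55 in Flox exercise, with -1.11 ± 0.44, and Kif23, a kinesin of cytokinesis, with -1.48 ± 0.63. Prc1, another cytokinesis protein, had -1.20 ± 0.61, and Ccne1, cyclin E1, had 1.10 ± 0.54. These genes were near 1 to 6 CPM, so few counts stand behind each value.

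Ccnd2, cyclin D2, was at 109, 129 and 139.6 CPM in Flox sedentary, 90.3, 91.4 and 83.9 in Flox exercise, 149, 173 and 155 in KO sedentary and 143, 174 and 143 in KO exercise. Flox exercise was below the other 9 libraries (-0.51 ± 0.12 in Flox, -0.05 ± 0.12 in KO), and the interaction was 0.46 ± 0.17. Cdkn1a, the CDK inhibitor p21, was higher without overlap in Flox (1.34 ± 0.44) and overlapped in KO (0.19 ± 0.42), with an interaction of -1.15 ± 0.61. Meis1, a homeobox factor tied to cardiomyocyte cell cycle exit, had -0.23 ± 0.16, and Cdkn2c, a CDK inhibitor, -0.29 ± 0.22. In this list of cyclins, CDKs and inhibitors 1 of 14 (7.14%) was higher at an unadjusted p and 0 lower.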

How the data were processed

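Whole-heart RNA was depleted of ribosomal RNA and sequenced, per the labels' protocols. Gene symbols carry estimated counts in the deposited table, and library totals differ, so the values are unscaled. The submitters' processing notes name FastQC, Salmon, mm9 and mm10, with no role for either build. For the annotation and the strand setting, nothing is stated in the sources used here. Salmon divides reads between near-identical sequences, so paralogs and overlapping genes are uncertain to that extent.

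Estimated counts were rounded to whole numbers. Of 55874 entries 1696 named vectors or adaptors (at most 0.186% of the counts in a library) and were dropped, and filterByExpr left 15226 genes. The test was that of edgeR 4.0.16 under R 4.3.3 (TMM, robust glmQLFit, glmQLFTest, 4 group means over 12 libraries, Benjamini-Hochberg at 0.05), checked on simulated data. CPM was computed on TMM-scaled library sizes, and log2 differences are given with standard errors. Alternatives were DESeq2 1.42.0, RLE scaling, no filter, no mitochondrial genes, a replicate block, an atrial covariate and each library left out. Members and 34 gene lists were chosen with earlier results of these data known, so lists have counts and medians and no test. Some genes stand in more than 1 list, such as Lpl in the adipocyte and fatty acid oxidation lists. Counts of different lists are therefore not separate results. Named genes, with a mean of at least 1 CPM, were Cited4, the 10 opposite genes per direction and the 5 genes per direction with the smallest interaction p, genes called in 1 genotype, and up to 4 members per described list; Bhlhe40, Plin1, Hspb1, Hspe1, Ciart, Cry1 and Per1 were named outside this rule, and 1 gene that the rule picks is not reported here. Promoter sequences and gene positions are from RefSeq, GRCm38.p6, matched by symbol, and exon overlaps from GENCODE: Bhlhe41, Cebpb, Hspa1a, Pdha1, Pln, Prc1 and Twnk share 11.1% to 59.6% of their exon bases with a gene on the other strand.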

Additional observations from a re-analysis of the deposited data

How the results depend on the processing

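The interaction count of 0 was 47 with DESeq2, 1 with no filter on low counts, and 0 to 2 with a library left out. The Flox label count of 0 was 44, 2 and 0 to 2. The KO label count of 3 was 110, 30, 1 with RLE scaling, 0 with the atrial covariate, and 0 to 566 with a library left out. Genes called in KO and not in Flox numbered 91 with DESeq2, 23 with no filter, 1 with RLE scaling, 0 with the atrial covariate and 0 to 502, and those called in Flox and not in KO 38, 1 and 0 to 1. Opposite genes without overlap numbered 54 to 204 (higher in KO) and 104 to 264 (lower) with a library left out, since fewer libraries overlap less often. With no filter, list medians were -1.21 for adipocyte, -0.90 for Schwann and neuronal and -1.69 for skeletal muscle genes, as more low genes enter, and the mesothelial median was 1.86 with the atrial covariate. With a library left out medians ran from -0.83 to -0.31 for brown fat, -0.52 to -0.13 for lymphocyte, -0.58 to -0.15 for Schwann and neuronal, -1.41 to -0.31 for skeletal muscle and -1.77 to 1.44 for mesothelial genes, and the medians of the mesothelial, heat shock (-0.27 to 0.01), smooth muscle and pericyte (-0.37 to 0.01), p53 target (-0.09 to 0.04) and CITED and C/EBP lists (-0.10 to 0.07) turned sign. Among genes with values here the interaction moved by over 1.5 times without Flox exercise 2 for Bmp10 (-2.90; -26.3 without KO exercise 1), Col5a2 (-0.63), Lyz2 (-0.54), Meis1 (-0.10) and Prc1 (-0.61), without KO exercise 2 for Tef (0.77) and Nr1d2 (0.55), without KO sedentary 1 for Abcc9 (1.66), Cdkn1a (-0.64), Cilp (-0.89) and Thbs1 (-0.68), without KO sedentary 3 for Cdkn2c (-0.11; also without KO exercise 2) and Egr3 (-1.06), without Flox sedentary 2 for Cebpb (0.41; also without KO sedentary 1), and, as given above, for Car3 and Nppb. Beyond those shown by the settings themselves, the cause was not tested. Of 2192 values for 122 named genes, 2159 kept sign and side of the threshold, 33 came to pass and 0 reversed. These genes were picked by their interaction p in the same data, and the alternatives share most or all libraries. Kept signs were thus favoured in advance, and the count says little about new samples. Same-numbered libraries did not deviate together (18 pairs, Pearson's r from -0.37 to 0.42), and 5 of 12 libraries correlated best with their own number; with a replicate block for that pairing the interaction count was 0. With 17465432 counts in the smallest library, genes near 1 CPM rest on few counts, and their differences are the least precise.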

Other observations

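The list of endoplasmic reticulum chaperones, which fold secreted proteins, also holds transcription factors and protein degradation factors. Its genes were mostly higher under the exercise label in Flox. Of 17 genes, 11 were higher and 1 lower there at an unadjusted p under 0.05, beside 3.86% and 3.56% of all genes, and 0 were either higher or lower in KO, beside 4.35% and 6.27%. Medians were 0.40 in Flox and 0.19 in KO. The interaction, which tests that difference, had 2 genes lower (11.8%) and 1 higher (5.88%) at an unadjusted p, and the median was -0.27. The list means were 5.75, 5.62 and 5.69 in Flox sedentary, 5.99, 6.15 and 5.98 in Flox exercise, 5.78, 5.62 and 5.75 in KO sedentary and 5.88, 5.67 and 6.07 in KO exercise. Flox exercise lay above Flox sedentary without overlap, and the KO labels overlapped.

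The remaining lists had few low interaction p values, and over all genes 5.52% were lower and 4.37% higher. Of 8 brown fat genes 2 were lower and 1 higher, with a median of -0.34. Of 19 p53 targets 1 was lower and 1 higher, with a median of -0.08 that ran from -0.09 to 0.04 with 1 library left out. Of 8 erythroid and platelet genes 1 was lower, and of 9 skeletal muscle genes 1 was lower. No gene of the lymphocyte (6 tested), Schwann and neuronal (12) or mesothelial (13) lists had an unadjusted interaction p under 0.05, with medians of -0.36, -0.33 and -0.15, the last of which had no stable sign, from -1.77 without KO exercise 3 to 1.44 without Flox exercise 2. Mesothelial genes, of the lining of the heart, had list means of 1.38, 1.496 and 2.46 in Flox sedentary, 1.51, 2.66 and 1.62 in Flox exercise, 1.83, 2.41 and 3.11 in KO sedentary and 1.82, 1.40 and 3.71 in KO exercise, and KO exercise 3 was the highest library.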
